A study of Mus musculus with 6 samples.

Results

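The genes described here handle zinc in the cell: the metallothioneins Mt1 and Mt2, the metal-responsive transcription factor Mtf1, the zinc exporters Slc30a1, Slc30a5 and Slc30a7, and the zinc importers Slc39a1, Slc39a6, Slc39a7 and Slc39a10. They were chosen by gene symbol, so every probe that the platform annotation assigns to one of these 10 genes was taken, which gave 15 of the 25697 probes on the array, for 10 of 16561 named genes. All RNA came from TUBO, an established epithelial line of a breast tumour that arose in a BALB-neuT female, a mouse that carries an activated rat neu oncogene. This oncogene and the tumour of origin are shared by both groups, and all cells were kept adherent without any further treatment. By title, 3 arrays named TMA hold cells in serum-free DMEM-F12 mammosphere medium, with EGF and bFGF each at 20 ng/ml, insulin at 5 μg/ml and bovine serum albumin at 0.4%, and 3 arrays named TDA hold cells in DMEM containing fetal calf serum at 20%. The source names give each title the other medium, so differences below are taken between array titles, TMA minus TDA, and which medium lies behind a sign is not settled. The 6 samples lay on 1 chip, TMA in the first positions and TDA in the last, so the group and the place on the chip cannot be told apart. The labels do not say whether replicates were separate cultures, so p-values rest on a spread between samples that may be technical only.

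Zinc is a cofactor of many enzymes and transcription factors, and the cell keeps its free level low. Importers of the SLC39 (ZIP) family bring zinc into the cytosol, from outside or from organelles, and exporters of the SLC30 (ZnT) family move it out of the cytosol. Metallothioneins are small cysteine-rich proteins that bind zinc and copper. When zinc rises, MTF1 binds metal response elements in DNA and raises transcription of Mt1, Mt2 and Slc30a1, and glucocorticoids and inflammatory signals also induce the metallothionein genes.

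Promoter windows of RefSeq on build GRCm38.p6, from 250 bases before to 50 bases after an annotated start, were used for 9 of the genes, all but Slc39a6. The core of the metal response element, TGCACNC or TGCGCNC on either strand, was found in 4 of the 9 genes: 3 matches for Mt1, 4 for Mt2, 2 for Slc30a1 and 1 for Slc30a5. Of all 32851 windows of the same length, 25.7% held at least 1 match, 7.11% at least 2, 1.97% at least 3 and 0.517% at least 4. The windows of Mt1, Mt2 and Slc30a1, the textbook targets of MTF1 among these genes, are shown 5′ to 3′ with the matches in capitals, a match on the opposite strand appearing as its reverse complement. They lie at chr8:94178839-94179138 for Mt1, chr8:94172368-94172667 for Mt2 and chr1:191906531-191906830 for Slc30a1, all on the plus strand.
Mt1: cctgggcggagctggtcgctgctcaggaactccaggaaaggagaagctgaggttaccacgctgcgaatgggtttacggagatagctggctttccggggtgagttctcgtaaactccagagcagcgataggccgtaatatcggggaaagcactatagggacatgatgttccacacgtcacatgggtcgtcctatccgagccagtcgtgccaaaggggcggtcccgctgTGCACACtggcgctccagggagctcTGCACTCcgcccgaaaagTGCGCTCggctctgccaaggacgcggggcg
Mt2: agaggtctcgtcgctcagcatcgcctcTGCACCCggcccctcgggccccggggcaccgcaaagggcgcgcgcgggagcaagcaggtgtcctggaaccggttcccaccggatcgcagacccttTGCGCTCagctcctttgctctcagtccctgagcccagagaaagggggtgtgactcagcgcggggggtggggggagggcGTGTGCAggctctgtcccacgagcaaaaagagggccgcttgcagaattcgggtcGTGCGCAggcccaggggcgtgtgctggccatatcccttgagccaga
Slc30a1: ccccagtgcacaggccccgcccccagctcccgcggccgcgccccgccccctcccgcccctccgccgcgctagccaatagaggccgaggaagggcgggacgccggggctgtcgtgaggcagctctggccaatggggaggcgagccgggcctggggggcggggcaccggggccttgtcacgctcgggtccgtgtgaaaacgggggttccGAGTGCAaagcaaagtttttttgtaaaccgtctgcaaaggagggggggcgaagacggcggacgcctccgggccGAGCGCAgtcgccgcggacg
Counted from the annotated start as base 1, with no base 0, the matches in Mt1 begin at -23, 3 and 21, and all lie on the strand of the gene. In Mt2 they begin at -223, -128, -50 and 5, the last 2 on the opposite strand, and in Slc30a1 at -43 and 31, both on the opposite strand. No matches overlapped in these windows, and a match describes letters only, not a bound site. The counts and positions hold for these windows and annotated starts only. Whether transcription begins at these starts was not examined, and matches outside the windows were not counted. Mt2 and Mt1 are neighbours on chromosome 8, next to Mt3 and Mt4.

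The mean non-normalized signal per probe was 615 to 635 on the TMA arrays and 560 to 845 on the TDA arrays, TDA1 being the brightest, and array medians ran from 271 to 310. What a probe is said to have read is its non-normalized signal, whereas differences are between group means of normalized log2 values. On the first principal component of all tested probes, TMA1 at -5.74 lay nearest the TDA arrays, which ran from 20.4 to 28.9, while TMA2 and TMA3 lay at -37.3 and -29.4. The epithelial keratin genes Krt8 and Krt18 read 5975 to 18321 and 5708 to 12988, and the cadherin gene Cdh1 1585 to 3055, though Krt19 stayed at 220 to 241. Of the other cell types, 8 fibroblast markers summed to 2076 to 2162 on TMA and 2067 to 2280 on TDA arrays, 6 endothelial markers to 1571 to 1725 and 1522 to 1827, and 6 adipocyte markers to 1422 to 1558 and 1491 to 1723, which is near the array medians per gene. The 6 leukocyte markers summed to 9855 to 22452 on TMA and 18558 to 33375 on TDA arrays, nearly all of it from Cd14, while the leukocyte-defining Ptprc read 205 to 278. Cd14 was brighter on TDA arrays as Mt1 was, with a log2 difference of -0.60 and overlapping groups (limma adjusted p = 0.291), and its part in the Mt1 result was not tested.

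Mt1 was the brightest of the 15 probes on each array and the one with the largest difference between groups. Its non-normalized signal was 10862 (TMA1), 4328 (TMA2), 3785 (TMA3), 32344 (TDA1), 10434 (TDA2) and 13866 (TDA3). These raw values overlap, since TMA1 read above TDA2. They placed the probe between the 98.2th and the 99.8th percentile of all probes on every array. After background correction and quantile normalization, which adjust each array to a common distribution, the log2 values were 13.52 (TMA1), 12.08 (TMA2), 11.82 (TMA3), 14.48 (TDA1), 13.54 (TDA2) and 14.00 (TDA3). TMA1 then lay only just below TDA2, and TMA2 and TMA3 lay well below every TDA array, and the groups were also apart after cyclic loess, after median scaling, with an offset of 16, with the background left in, and in the authors' deposited table of log2 values. The means were 12.47 ± 0.91 and 14.01 ± 0.47 (SD, n = 3 each), a difference of -1.54 with a standard error of 0.39 and a 95% interval from -2.38 to -0.69, or 2.90-fold less on the TMA arrays. As RNA was pooled over all cells of a culture, fewer cells with Mt1 RNA and less Mt1 RNA per cell cannot be told apart. This narrowly missed the threshold of 0.05, with a limma adjusted p of 0.0548 and an unadjusted p of 0.00184, rank 432 of 12848 tested probes.

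**Figure D1:**
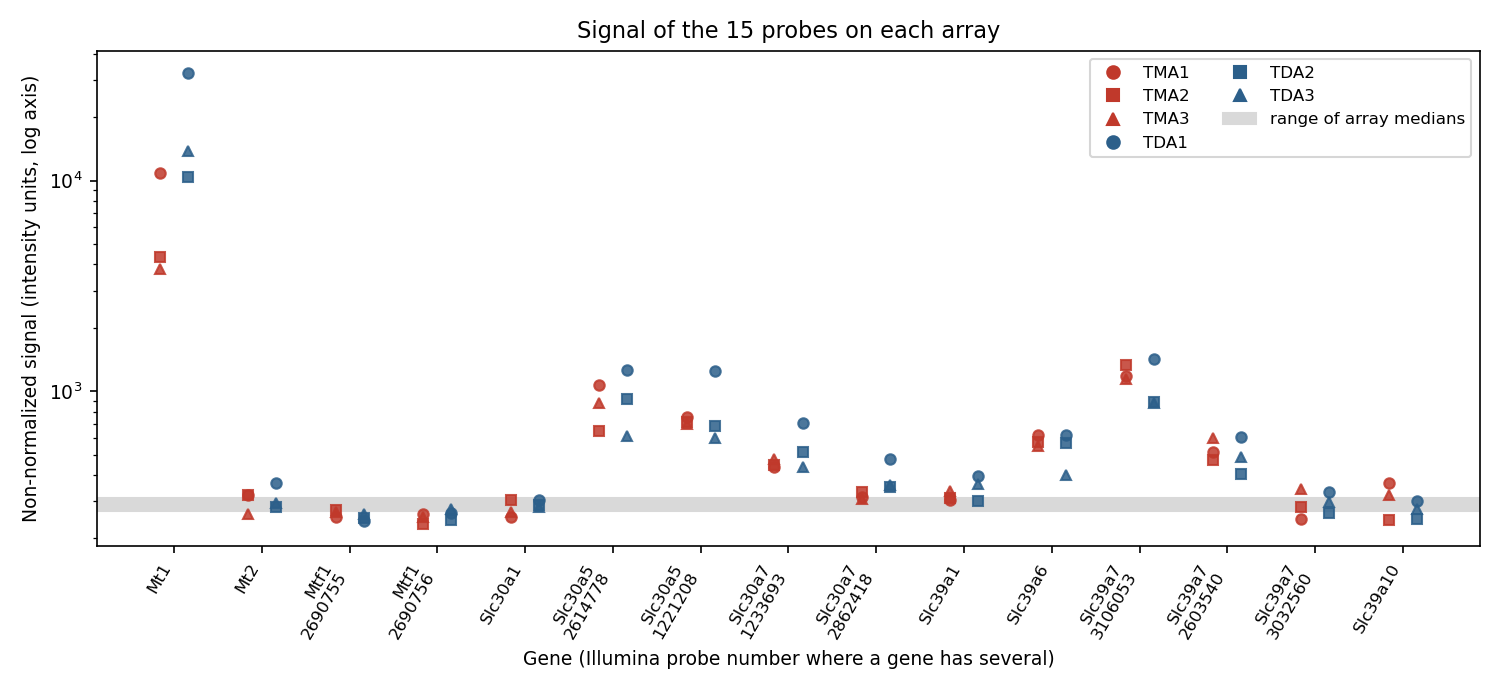
Non-normalized signal (log axis) of the 15 probes on each array, TMA in red and TDA in blue, with a marker shape for each replicate number and a grey band for the range of array medians, 271 to 310. Mt1 lies between 3785 and 32344, every other probe at 1419 or less, and Mt2, Mtf1 and Slc30a1 lie at or near the band.

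Of the 15 probes, 13 were bright enough to be tested, that is, above the median of all probes in mean log2 value, and they represent 9 of the 10 genes, all but Mtf1. Limma called 0 of the 13 at an adjusted p under 0.05, where 3.01% of all tested probes were called. An unadjusted p under 0.05 was reached by 2 of the 13, or 15.4%, against 18.5% of all tested probes. The groups did not overlap for 3 of the 13, or 23.1%, against 23% of all tested probes. These shares were near that of all tested probes or below it. The median log2 difference was -0.06 over the 13 probes, 9 of them below and 4 above 0, and -0.00396 over all tested probes.

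Whether Mt1 passed depended on the settings. Its difference was negative in all 16 alternatives, from -2.07 to -1.21, and it passed in 6 of them. It passed without TMA1, the TMA array with the most Mt1 signal, at -2.06 (limma adjusted p = 0.00444), and without TDA2, the TDA array with the least, at -1.77 (adjusted p = 0.0137). It did not pass without TMA2, TMA3, TDA1 or TDA3, where the differences were -1.34, -1.21, -1.30 and -1.54 and the limma adjusted p was 0.23, 0.249, 0.214 and 0.115. Cyclic loess normalization gave a limma adjusted p of 0.0421, a fit to all probes without the brightness filter 0.0351 (1.44% of all probes passed in that fit), and the authors' deposited table of log2 values -1.58 with 0.0974.

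**Figure D2:**
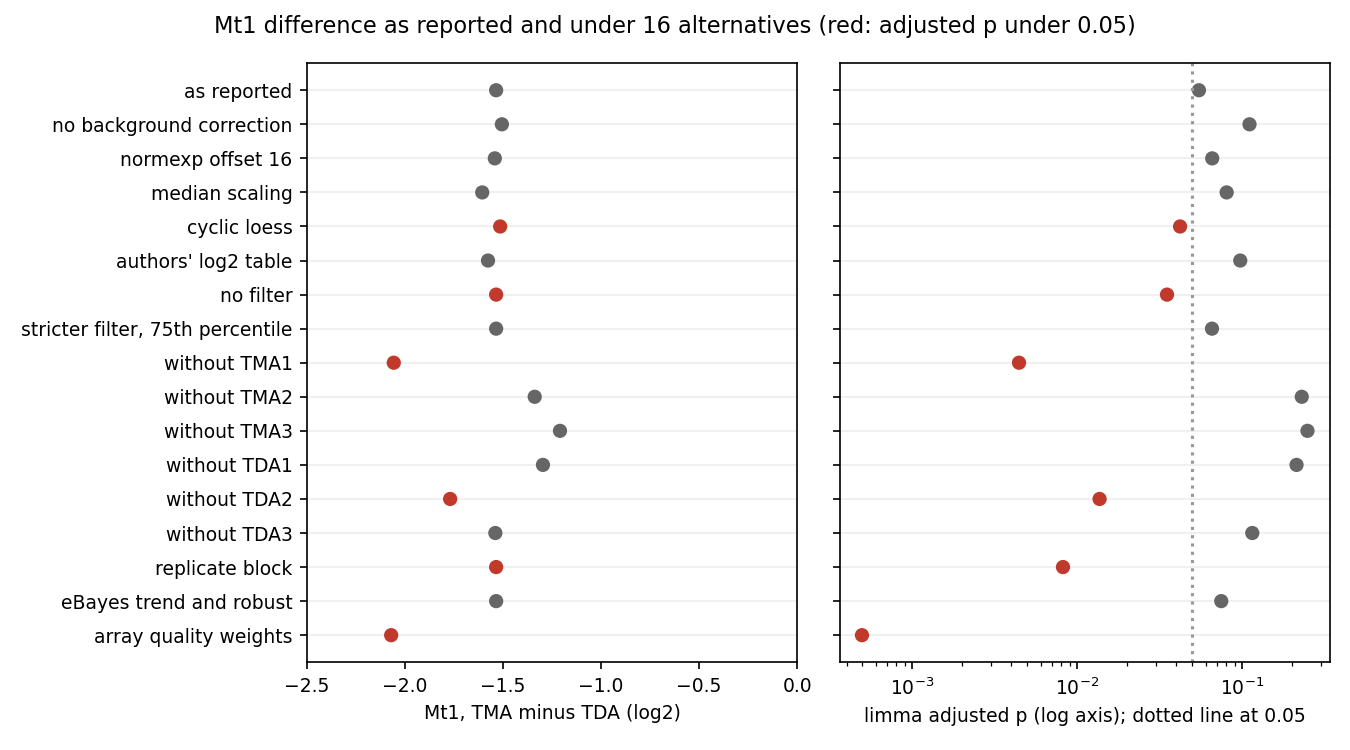
Mt1 difference, TMA minus TDA in log2 units (left), and its limma adjusted p on a log axis (right), as reported and under 16 alternative settings, with red points where the adjusted p is under 0.05. All points lie below 0, from -2.07 to -1.21, and 6 alternatives fall left of the dotted line at 0.05.

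The probe of Mt2, the second ubiquitous metallothionein, gave a signal close to the array median and no difference that could be detected. It read 323 (TMA1), 322 (TMA2), 260 (TMA3), 364 (TDA1), 282 (TDA2) and 293 (TDA3). TMA3 was the lowest and TDA1 the highest, with the groups overlapping. On the log2 scale the means were 7.24 ± 0.41 and 7.27 ± 0.13 (SD, n = 3 each), a difference of -0.03 with a 95% interval from -0.54 to 0.48 (limma adjusted p = 0.964). At this brightness the offset added before taking logs understates a change, and the files carry no detection p-value that would say whether the probe was above background. Levels of different probes are not comparable on this platform, so the gap between the Mt1 and Mt2 signals is not a ratio of their RNAs.

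The 2 probes of Mtf1, the zinc sensor, were both below the brightness filter. They read 234 to 272 on the TMA arrays and 243 to 274 on the TDA arrays, all under the median signal of their array. Their log2 differences had opposite signs, 0.22 for ILMN_2690755 and -0.13 for ILMN_2690756, and in the limma fit without a filter the 95% intervals ran from -0.25 to 0.69 and from -0.58 to 0.33 (adjusted p of 0.802 and 0.906). No level of Mtf1 can be read from these values.

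Among the exporters, Slc30a7 was the one whose groups did not overlap in normalized log2 values. Slc30a7 loads zinc into the early secretory pathway, where it is handed to enzymes such as alkaline phosphatases. Its first probe, ILMN_1233693, had log2 values of 8.16 (TMA1), 8.36 (TMA2), 8.25 (TMA3), 8.61 (TDA1), 8.70 (TDA2) and 8.41 (TDA3). Its second probe, ILMN_2862418, had 7.35 (TMA1), 7.62 (TMA2), 7.27 (TMA3), 7.92 (TDA1), 7.85 (TDA2) and 7.85 (TDA3). On both probes each TMA array lay below each TDA array in these log2 values. The non-normalized signals of the first probe overlapped, since TDA3 read 436.8 against 437.3 (TMA1), 444.7 (TMA2) and 477.3 (TMA3). The differences were -0.32 with a 95% interval from -0.74 to 0.10 (limma adjusted p = 0.418) and -0.46 with an interval from -0.88 to -0.04 (unadjusted p = 0.0337, limma adjusted p = 0.220). Neither passed, although both stayed negative in all 16 alternatives, and the second passed with array quality weights at an adjusted p of 0.0497. With median scaling the groups of the first probe overlapped.

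Slc30a5, which forms a transporter with Slc30a6 in the same compartments, showed no detectable difference on either probe. ILMN_2614778 had log2 values of 9.85 (TMA1), 9.09 (TMA2), 9.42 (TMA3), 9.54 (TDA1), 9.76 (TDA2) and 9.19 (TDA3), a difference of -0.05 with an interval from -0.57 to 0.48 (limma adjusted p = 0.945). ILMN_1221208 had a difference of -0.15, from -0.59 to 0.28 (limma adjusted p = 0.757). The first of these probes changed sign with 1 array left out, at 0.14 without TMA2 and 0.09 without TDA2. Slc30a1 is the exporter at the plasma membrane and, like the metallothioneins, a target of MTF1. It read 252 (TMA1), 304 (TMA2), 268 (TMA3), 303 (TDA1), 288 (TDA2) and 281 (TDA3), at the level of the array medians. TMA2 was the highest of all and TMA1 the lowest, and the log2 difference was -0.15 with an interval from -0.64 to 0.34 (limma adjusted p = 0.793).

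Of the 6 importer probes 4 lay above 0, where 4424 of all 8964 tested genes did. Every interval spanned 0, and none passed the test. Slc39a6 and Slc39a10 are related plasma membrane importers that can act together. Slc39a6 read 621 (TMA1), 575 (TMA2), 549 (TMA3), 617 (TDA1), 566 (TDA2) and 400 (TDA3), and TDA3 stood below the rest. Its log2 difference was 0.27 with an interval from -0.23 to 0.78 (limma adjusted p = 0.601). Slc39a10, whose transcription MTF1 restrains in mouse cells, read 368 (TMA1), 243 (TMA2), 320 (TMA3), 301 (TDA1), 248 (TDA2) and 276 (TDA3). TMA2 was the lowest array and TMA1 the highest, and the difference of 0.33 with an interval from -0.26 to 0.93 (limma adjusted p = 0.586) ranged from 0.07 to 0.66 with 1 array left out.

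Slc39a7 releases zinc from the endoplasmic reticulum and Golgi, and its 3 probes did not share a sign. The brightest, ILMN_3106053, had log2 values of 10.01 (TMA1), 10.30 (TMA2), 9.86 (TMA3), 9.71 (TDA1), 9.70 (TDA2) and 9.92 (TDA3), with TDA3 inside the TMA range. Its difference was 0.28 with an interval from -0.16 to 0.72 (limma adjusted p = 0.520). ILMN_2603540 gave 0.16 and the dim ILMN_3032560 gave -0.06, with limma adjusted p of 0.762 and 0.935, and the dim probe turned to 0.18 without TMA1. Slc39a1, an importer found in most tissues, read 305 (TMA1), 312 (TMA2), 336 (TMA3), 396 (TDA1), 299 (TDA2) and 364 (TDA3), overlapping at TDA2. Its log2 difference was -0.24 with an interval from -0.68 to 0.21 (limma adjusted p = 0.613).

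**Figure D3:**
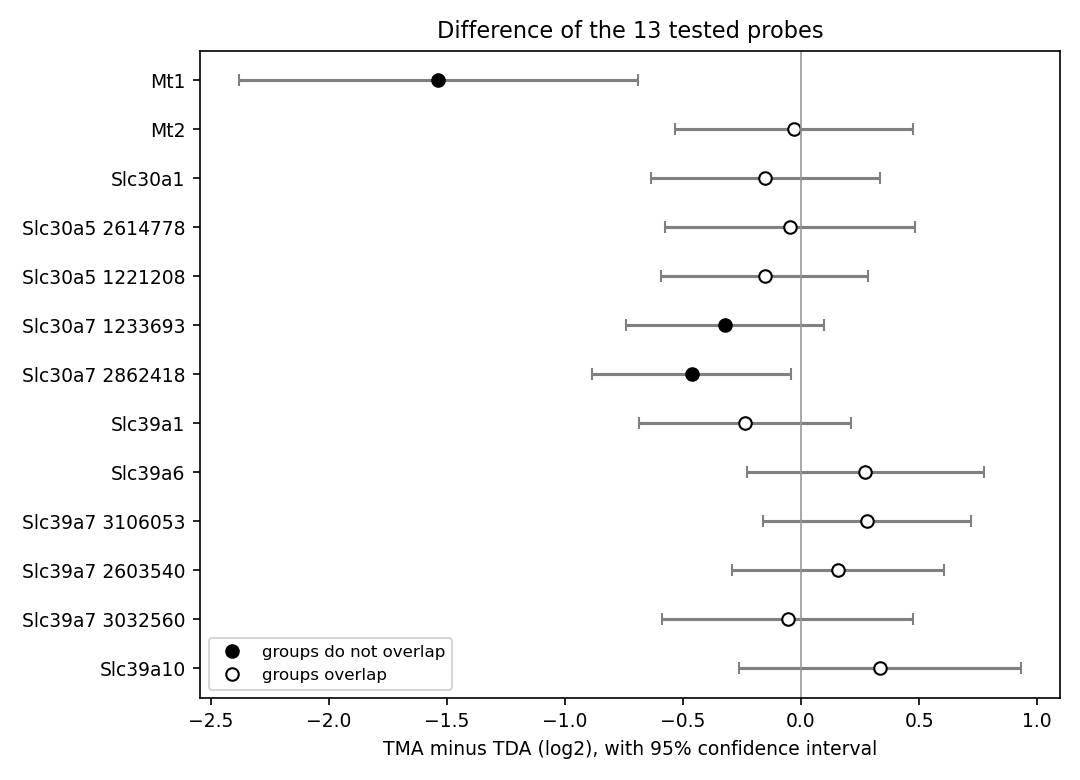
Log2 difference, TMA minus TDA, with its 95% confidence interval for the 13 tested probes, with filled points where the 3 TMA and 3 TDA values do not overlap. Mt1 at -1.54 and the second Slc30a7 probe at -0.46 are the only ones whose interval leaves out 0, and the interval is not adjusted for the number of probes tested.

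The genes whose pattern over the 6 arrays came closest to that of Mt1 were sought among 8955 tested genes, by the root mean square distance between log2 values centred on each probe's mean. They were the serine synthesis gene Psat1 at a distance of 0.24, the mitotic activator gene Cdc20 at 0.25, the replicative helicase gene Mcm4 at 0.25, the spindle gene Spag5 at 0.26 and the matrix glycoprotein gene Papln at 0.27, where the median gene lay at 0.997. Since they were chosen for a pattern like that of Mt1 over the same 6 arrays, the choice fixed the sign and near size of their differences, which are a description and support nothing. Their log2 differences were -1.68, -1.66, -1.55, -1.58 and -1.87, and all but Spag5 passed (limma adjusted p of 0.0270, 0.0200, 0.0352 and 0.0270, and 0.0573 for Spag5). As for Mt1, TMA1 was the highest of the TMA arrays for each of the 5 genes, which also follows from the way they were chosen. Psat1, Cdc20, Mcm4 and Papln each no longer passed when TMA2, TMA3, TDA1 or TDA3 was left out, with no background correction (limma adjusted p of 0.0521 to 0.0746) or in the authors' deposited table of log2 values (0.0603 to 0.0796). Mcm4 and Papln also did not pass with median scaling, at limma adjusted p of 0.0869 and 0.0533. The 3 other tested probes of Cdc20 also passed, at -0.96 to -1.47, whereas the other Mcm4 probe gave -0.16 (limma adjusted p = 0.769). Whether the lower signal of such genes has a part in the Mt1 result was not tested. For Mt2 the nearest were Engase, Ing2, Zfp367, Tpcn1 and Sde2 at distances of 0.03 to 0.08, where the median gene lay at 0.37, and 0 of these passed, with limma adjusted p of 0.845 to 0.965.

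**Figure D4:**
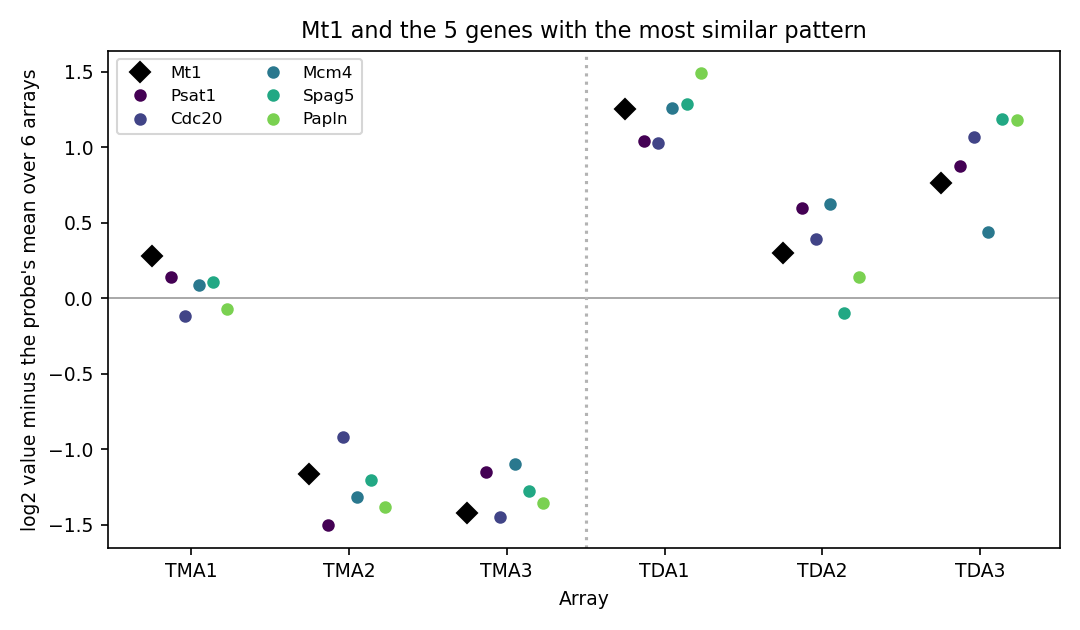
Log2 value minus the probe's mean over the 6 arrays for Mt1 (diamonds) and the 5 genes closest to it, by array, with a dotted line between the TMA and TDA arrays. For Mt1 the centred values are 0.28 (TMA1), -1.16 (TMA2), -1.42 (TMA3), 1.25 (TDA1), 0.30 (TDA2) and 0.76 (TDA3), so TMA1 and TDA2 lie almost level.

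Of 20 further zinc transporter and metallothionein genes, 16 were on the array and 11 were tested, and limma called 0 of them. Unadjusted p was under 0.05 for 1730 of all 8964 tested genes and for 1 of the 11. That gene was Slc39a13, which releases zinc from intracellular stores. It read 684 (TMA1), 661 (TMA2), 820 (TMA3), 580 (TDA1), 494 (TDA2) and 487 (TDA3), so that each TMA array was brighter than each TDA array. Its log2 difference was 0.63 with an interval from 0.19 to 1.07 (limma adjusted p = 0.116), and its other tested probe gave 0.53 (adjusted p = 0.172). Slc30a6, the partner of Slc30a5, followed with -0.44 and an interval from -0.90 to 0.02 (limma adjusted p = 0.291). The groups did not overlap for 4 of the 11, against 23% of all tested probes, and these were Slc39a13, Slc39a3 at 0.37, Slc30a9 at 0.36 and Slc39a14 at -0.35, the last 3 named after their values were seen. The median of the 11 was -0.24, with 3 above and 8 below 0, and the median of all 8964 tested genes was -0.00469. The median of this list was -0.12 without TDA2, -0.14 with array quality weights, -0.05 with no brightness filter and -0.04 in the authors' deposited table of log2 values. Mt3 and Mt4 were too dim to be tested, at 217 to 280 and 215 to 275.

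**Figure D5:**
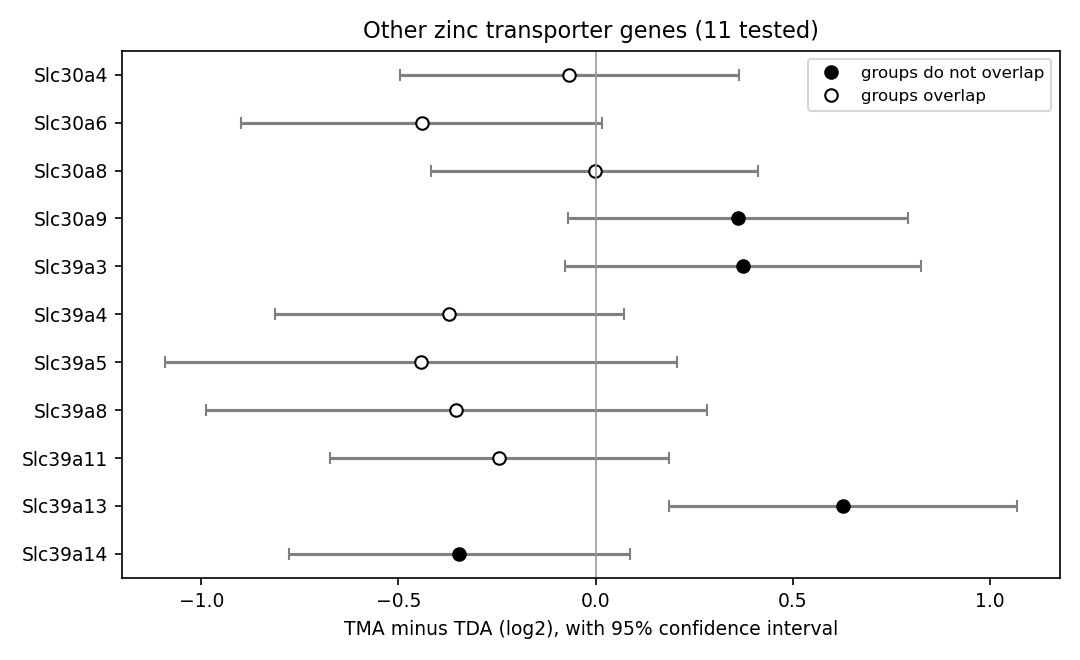
Log2 difference, TMA minus TDA, with its 95% confidence interval for the 11 tested zinc transporter genes outside the main set, with filled points where the groups do not overlap. Slc39a13 at 0.63 is the only one whose interval leaves out 0.

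Of 7 other genes known as MTF1 targets 4 were tested, and limma called 0 of them. Unadjusted p was under 0.05 for 2, against 1730 of all 8964 tested genes. Of the 4, 3 lay below 0, as did 4540 of all 8964 tested genes, while the 3 untested ones lay above it, at 0.72 for Fabp1, 0.09 for Plac8 and 0.04 for Gclc. Selenow, a small selenoprotein, read 628 (TMA1), 521 (TMA2), 617 (TMA3), 964 (TDA1), 742 (TDA2) and 792 (TDA3), a log2 difference of -0.64 without overlap (limma adjusted p = 0.125). Csrp1, a zinc-binding LIM protein, differed by 0.98 with overlapping groups (limma adjusted p = 0.194), TDA2 being the lowest array at 1384. The median over the 4 genes was -0.30, and over all 7 on the array, with no brightness filter, it was 0.04. With 1 array left out, the median of the 4 was -0.07 (without TMA1), -0.51 (without TMA3), -0.16 (without TDA1), -0.67 (without TDA2) and -0.08 (without TDA3).

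Of 12 copper handling genes, 10 were on the array and all of these were tested, and 1 fell and 0 rose in limma, where 1.49% of all tested probes fell. Unadjusted p was under 0.05 for 3, against 1730 of all 8964 tested genes, and the median of the 10 was -0.05. That median had no stable sign, at 0.01 without TMA2, 0.05 without TMA3 or TDA3, 0.02 with array quality weights, and -0.02 and -0.0015 without TMA1 and TDA2. Commd1, which takes part in copper export, fell by 1.07 on the log2 scale (limma adjusted p = 0.0305). It read 962 (TMA1), 732 (TMA2), 748 (TMA3), 2556 (TDA1), 1112 (TDA2) and 1327 (TDA3), without overlap. Its other tested probe gave -0.60 (limma adjusted p = 0.180), and the first probe no longer passed when TMA2, TMA3, TDA1 or TDA3 was left out, with limma adjusted p from 0.0875 to 0.173. It also did not pass with median scaling (limma adjusted p = 0.102) or in the authors' deposited table of log2 values (0.0529).

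Metallothioneins also respond to oxidative stress, glucocorticoids and STAT3, and genes of these responses were examined beside Mt1. Of 8 tested genes of the metal and oxidative stress response limma called 0. Unadjusted p was under 0.05 for 3, against 1730 of all 8964 tested genes. The median was 0.17, and it was 0.08 without TMA2, 0.09 with no background correction and 0.10 in the authors' deposited log2 table. It was 0.35 with a stricter brightness filter, above the 75th percentile. The heat shock gene Hspb1 of this list read 347 (TMA1), 689 (TMA2), 606 (TMA3), 312 (TDA1), 248 (TDA2) and 323 (TDA3). Its log2 difference was 1.38 (limma adjusted p = 0.0548), opposite in sign to Mt1. Hspb1 passed in 5 of the 15 alternatives that tested it, with limma adjusted p from 0.00171 to 0.228 over the 15. The cystine importer gene Slc7a11 differed by -1.45 (limma adjusted p = 0.127), with TDA2 far above the rest at 1037.

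Of 7 tested glucocorticoid targets 2 rose and 0 fell in limma, where 1.53% of all tested probes rose. Unadjusted p was under 0.05 for 4, 3 higher and 1 lower, against 1730 of all 8964 tested genes. Of the 7, 6 lay above 0 and 1 below. The median was 0.13, and it was 0.30 without TMA1, 0.24 without TMA3, 0.25 without TDA1 and 0.45 with the stricter filter. The EGF receptor inhibitor gene Errfi1 rose by 0.97 (limma adjusted p = 0.0333) and the transcription factor gene Klf9 by 0.83 (adjusted p = 0.0471). Errfi1 no longer passed when TMA2, TMA3, TDA1 or TDA3 was left out, and Klf9 no longer passed without any 1 of the 6 arrays, with adjusted p of 0.0508 to 0.199. Neither passed with an offset of 16 (limma adjusted p of 0.0558 for Errfi1 and 0.0749 for Klf9) or with median scaling (0.175 and 0.240), and Klf9 passed in 2 of the 16 alternatives. The lower one was the kinase gene Sgk1, named after its values were seen, which read 6481 (TMA1), 5690 (TMA2), 3766 (TMA3), 14222 (TDA1), 18778 (TDA2) and 5233 (TDA3). Its groups overlapped at TDA3, and its log2 difference of -1.06, of the same sign as that of Mt1, did not pass (unadjusted p = 0.0151, limma adjusted p = 0.146). Of 6 STAT3 targets limma called 0, with 3 at an unadjusted p under 0.05, against 1730 of all 8964 tested genes. Among the 3 were the feedback inhibitor gene Socs3 at 0.94 and the receptor gene Osmr at 0.78 (limma adjusted p of 0.0548 and 0.0961). Socs3 passed in 5 of the 15 alternatives that tested it, and Osmr in 1 of 16. All 6 lay above 0, as did 4424 of all 8964 tested genes. The median was 0.53, or 0.29 with the stricter filter and 0.35 with no background correction or in the authors' deposited log2 table. Lcn2 counts among the 6, but it read 69616 to 71751, the highest signal of all probes on every array but TDA1, so no sign can be read from its difference. Of 4 tested secreted or membrane zinc enzymes, which receive zinc in the secretory pathway or at the cell surface, limma called 0, with 0 at an unadjusted p under 0.05. The median difference was 0.39, with the carbonic anhydrase genes Car12 at 0.76 and Car9 at 0.37 (limma adjusted p of 0.477 and 0.519), and the Car12 difference was -0.02 without TDA2, the array on which it was dimmest. Without TDA2 the median of the 4 was 0.03, without TDA3 it was 0.63, and over the 7 genes on the array, with no filter, it was 0.09.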

How the data were processed

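Trizol RNA was labelled with Illumina's standard method, per the labels' protocols. The raw deposited table gives a non-normalized intensity for each probe on each array, without detection p-values. The other deposited table gives log2 values, normalized by the authors (the method is not given in the sources used here), and served as an alternative. All value columns were mapped to samples by chip position or sample name. Intensities were corrected with normexp (offset 50), quantile normalized and logged (log2) with limma 3.58.1, R 4.3.3, so changes of dim probes are understated. Probes above the median of mean log2 values (12848 of 25697) entered limma's two-sided test (lmFit, eBayes). P-values were adjusted by Benjamini-Hochberg over these probes, with a threshold of 0.05. The number of arrays limits the precision. A gene of a list was represented by its brightest tested probe. The members and lists were chosen with earlier results of these data known. Named were all member probes, from each list the genes past the threshold or the 2 with the smallest p, and the 5 genes nearest to Mt1 and to Mt2. Marker genes of cell types, those marked in the text, and Mt3, Mt4, Fabp1, Plac8, Gclc and Lcn2 were named outside this rule. Symbols came from the platform annotation, where 23846 probes had 1 symbol, 0 had several and 1851 were unnamed here. The procedure was tested on simulated data. Figures were drawn with matplotlib 3.10.9. The alternatives were the 16 settings given under the processing dependence: background, normalization, filter, arrays left out, replicate block, variance model and array weights.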

Additional observations from a re-analysis of the deposited data

How the results depend on the processing

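The count of probes past the threshold, 387, was 135 in the authors' log2 table, 129 with median scaling, 198 with no background correction, 232 with the stricter filter (above the 75th percentile), 1906 with array quality weights and 3 to 682 with 1 array left out: 682, 21 and 3 without TMA1, TMA2 and TMA3, and 8, 658 and 112 without TDA1, TDA2 and TDA3. It stayed within 1.5 times with an offset of 16, cyclic loess, no filter, the replicate block (518) and eBayes with a trend and robust prior. Of the members, 0 passed as reported, 1 with cyclic loess, no filter or the replicate block, 2 with array quality weights and 0 to 1 with 1 array left out, Mt1 in every case and the second Slc30a7 probe with the weights. The stricter filter left 7 of the 13 member probes to test. No label says that equal replicate numbers share a culture or day, so pairing is not settled. The deviations of same-numbered arrays from their group means correlated at 0.126, 0.0133 and 0.0269, against -0.100 to 0.0615 for the other pairs. With 3 arrays per group the deviations sum to 0 in each group, so these correlations cannot say whether samples were paired. Mt1 had a limma adjusted p of 0.00821 with the block. Signs changed for uncalled probes only: Mt2 was 0.20 without TMA3 and 0.04 without TDA1 (-0.17 to 0.20 over the arrays left out), Slc30a5 (ILMN_2614778) 0.14 and 0.09 without TMA2 and TDA2 (-0.24 to 0.14), Slc39a7 (ILMN_3032560) 0.18 without TMA1 (-0.29 to 0.18) and 0.0432 with array quality weights, and Car12 -0.0231 without TDA2 (up to 1.31). The causes were not tested. The absence of detection p-values limits what can be said of Mt2, Mtf1, Slc30a1 and the other probes near the array median.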
